A study of Mus musculus with 27 samples.

Results

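The St8sia genes encode the alpha2,8-sialyltransferases, Golgi enzymes that add sialic acid to a sialic acid already at the end of a glycan. All probe sets whose platform gene symbol starts with St8sia in mouse spelling were taken, which gave 7 probe sets of 5 genes, St8sia1 to St8sia5, out of 702 mouse probe sets of 573 genes and 1813 probe sets in all. St8sia6 was not analysed here. Each probe set had its own entry in the table, and St8sia1 and St8sia2 had a pair each, called A (the brighter) and B here. The probe sets B and that of St8sia4 carry the array maker's mark for probes that match more than 1 transcript, so a related transcript could add to their signal.

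The samples were total RNA of bone marrow (from femurs), lymph node, spleen, thymus, lung, brain, kidney, liver and testis, 3 arrays per tissue and 27 in all. Every tissue came from wild-type C57BL/6 mice, an inbred laboratory strain, all male and 6 to 8 weeks old, with no treatment, and no tissue serves as a control for the others. The array was a custom 1-colour Affymetrix design for genes of glycan biology. Whether the 3 arrays of 1 tissue stand for different animals is not in the labels. The p-values below then cover the spread among arrays, which may be technical, and the number of arrays limits the precision.

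The family divides by product. St8sia2 and St8sia4 are the polysialyltransferases: each can build polysialic acid, a long chain of sialic acids that loosens cell contacts when carried by the neural cell adhesion molecule, and that also sits on the chemokine receptor Ccr7 and on neuropilin-2 in immune cells. St8sia1 (GD3 synthase) and St8sia5 (the enzyme that extends the complex brain gangliosides) act on gangliosides, the sialic acid-bearing glycolipids that are abundant on neurons. St8sia3 adds 1 or a few sialic acids, mostly on glycoproteins, and is known from brain and testis.

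For the polysialyltransferases, the stretch of 300 bases around the annotated transcription start, mostly upstream of it, is shown because St8sia4 and St8sia2 make the same product and differed in how widely their levels varied over tissues. The sequences are those of RefSeq on GRCm38.p6, for St8sia4 at chr1:95667545-95667844 and for St8sia2 at chr7:74013633-74013932, both on the minus strand and written 5′ to 3′ of the gene. Capitals mark TGTGGT (the core bound by Runx factors), CCAAT (the CCAAT box) and GGGCGG (the GC box) on either strand.
St8sia4: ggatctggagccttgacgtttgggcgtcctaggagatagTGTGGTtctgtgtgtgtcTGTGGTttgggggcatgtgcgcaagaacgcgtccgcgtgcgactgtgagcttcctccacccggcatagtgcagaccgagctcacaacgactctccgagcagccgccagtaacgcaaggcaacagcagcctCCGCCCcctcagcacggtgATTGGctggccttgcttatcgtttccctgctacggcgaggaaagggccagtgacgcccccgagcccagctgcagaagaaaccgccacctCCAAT
St8sia2: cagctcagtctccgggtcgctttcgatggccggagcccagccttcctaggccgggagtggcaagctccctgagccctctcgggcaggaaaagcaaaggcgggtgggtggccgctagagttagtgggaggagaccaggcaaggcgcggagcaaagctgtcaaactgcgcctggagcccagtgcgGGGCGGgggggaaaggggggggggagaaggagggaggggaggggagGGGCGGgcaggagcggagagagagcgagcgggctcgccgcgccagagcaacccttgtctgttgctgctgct
The St8sia4 window held 22 CpG dinucleotides and that of St8sia2 held 20, against a median of 7 over 32851 windows of the same length. The letters TGTGGT stood 2 times in the St8sia4 window and 0 times in that of St8sia2. Of all windows, 16.8% held TGTGGT at least once and 1.81% held it 2 or more times. CCAAT stood 2 times in the St8sia4 window, once on each strand, and 0 times in that of St8sia2 (37.4% of all windows held it, and 11.7% held 2 or more). GGGCGG stood 1 time in the St8sia4 window and 2 times in that of St8sia2 (35.7% of all windows held it, and 19.5% held 2 or more). None of these motifs overlaps another here, they were chosen after the sequences were seen, and a match is a description of the letters and not of a bound site.

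Levels are given as deposited intensities, which are linear. Each difference is a log2 value ± its SE out of 1 limma fit to all 702 mouse probe sets, and adjusted p-values are Benjamini-Hochberg values over these 702. A difference was called where the adjusted p was under 0.05 and the size at least 1 on the log2 scale, or for the 9 tissues together where the range of tissue means was at least 1. Some smaller differences are given by adjusted p alone and are named as such.

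Of the 7 probe sets, St8sia4 and St8sia3 were called over the 9 tissues by the F test with the threshold on range, where 52.3% of the mouse probe sets were called. By adjusted p alone all 7 passed, as did 86.3% of the mouse probe sets, so that a difference among tissues as such does not set the family apart. The sizes differed widely. The tissue means of St8sia4 spanned 4.33 (20.1-fold), the 41st largest of 702 ranges. Its lowest tissue, testis, lay below the median of the human probe sets on the array, so that the exact fold and rank depend on background. The means of St8sia3 spanned 1.04 (2.05-fold). The other 5 probe sets spanned 0.45 to 0.76 (1.37-fold to 1.69-fold), against a median of 1.07 (2.10-fold) over all mouse probe sets.

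St8sia4, the polysialyltransferase known from blood cells as well as brain, was highest in the blood-forming and lymphoid tissues. In bone marrow its 3 arrays read 1125, 1485 and 1666 (1425 ± 276, SD, n = 3), in lymph node 1215, 1322 and 1380.1 (1306 ± 83.5), and in spleen 1278, 1198 and 1199.6 (1225 ± 45.9). These 3 tissues overlapped one another, and all 9 of their arrays lay above every other array. Thymus read 856, 725 and 609.9 (730.2 ± 123) and lung 625, 694 and 495 (605 ± 101). Thymus and lung overlapped each other and lay below the first 3 tissues and above the remaining 4. Brain read 251, 166 and 284 (234 ± 61.0), kidney 110.3, 121 and 85.1 (106 ± 18.5), liver 105, 102 and 81.0 (96.1 ± 13.1) and testis 73.4, 67.9 and 68.5 (69.9 ± 3.01). Brain stood clear of kidney, liver and testis, and the 3 testis arrays were below every other array.

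**Figure D1:**
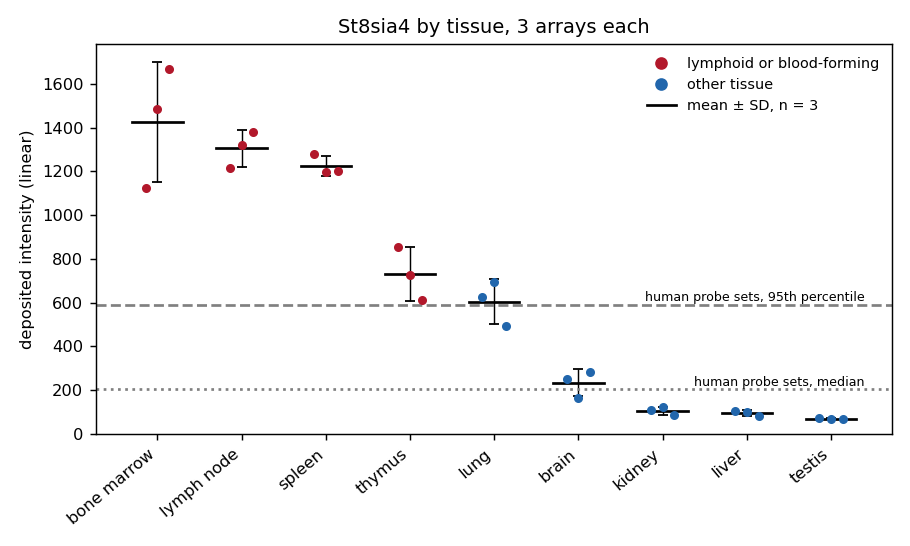
Deposited intensity of St8sia4 on each array, with tissues in order of their mean (bars: mean ± SD, n = 3). Red points are blood-forming or lymphoid tissues and blue points the others; the grey lines are the median (205.2) and the 95th percentile (590.1) of the human probe sets on the same arrays. Bone marrow, lymph node and spleen sit above 1120, thymus and lung between 490 and 860, and kidney, liver and testis below 125.

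The order of the 9 tissues for St8sia4 was therefore made of steps. Bone marrow, lymph node and spleen did not differ beyond their spread (limma adjusted p = 0.689 for bone marrow minus lymph node and 0.844 for lymph node minus spleen). Spleen minus thymus was 0.76 ± 0.18 (limma adjusted p = 0.00226), under the threshold on size. Thymus minus lung was 0.27 ± 0.18 (limma adjusted p = 0.258). Lung minus brain (1.40 ± 0.18, limma adjusted p = 6.68e-07) and brain minus kidney (1.13 ± 0.18, limma adjusted p = 1.73e-05) were both called. Kidney minus liver was 0.13 ± 0.18 (limma adjusted p = 0.673) and liver minus testis 0.45 ± 0.18 (limma adjusted p = 0.0524), although no liver array overlapped a testis array, and this pair passed 0.05 in 13 of 36 alternatives. Of the 36 tissue pairs, 26 were called, and in the median pair 17.5% of the mouse probe sets were called (4.56% to 24.4%). By adjusted p alone 30 pairs passed, where the median pair had 43.8% of the mouse probe sets. Without brain replicate 3, brain minus kidney was 0.97, without kidney replicate 3 it was 0.98, and with quantile normalization spleen minus thymus was 0.44 and lymph node minus thymus 0.49 against 0.85 as deposited.

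Set against the mean of the log2 levels of the other 8 tissues, St8sia4 was higher in bone marrow by 2.14 ± 0.14 (4.40-fold, limma adjusted p = 5.34e-12), where 6.13% of the mouse probe sets were called higher, in lymph node by 2.01, in spleen by 1.91 and in thymus by 1.06. The thymus value fell short of the threshold without thymus replicate 1 (0.94), with an offset of 16 in place of the floor (0.97), with array weights (0.95) and with the median in place of the mean of the other 8 (0.97). St8sia4 was lower in testis by 2.74 ± 0.14 (6.66-fold, limma adjusted p = 5.13e-14), where 13.4% of the mouse probe sets were called lower, in liver by 2.23 and in kidney by 2.09. Lung was higher by 0.75 and brain lower by 0.82 with adjusted p-values of 7.88e-05 and 1.84e-05 from limma, both under the threshold on size, and with the median in place of the mean brain was lower by 1.53.

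The 4 blood-forming and lymphoid tissues together had St8sia4 intensities of 609.9 to 1666 on 12 arrays, against 67.9 to 694 on the 15 arrays of lung, brain, kidney, liver and testis. The groups overlapped through 1 thymus array and 2 lung arrays. The difference was 2.85 ± 0.09 (7.20-fold, limma adjusted p = 1.12e-18), and 11.5% of the mouse probe sets were called higher in this comparison. Its SE and p-value cover the spread among arrays of a tissue, and not the spread among the tissues of a group. In whole tissue, more RNA per cell and more cells of a type cannot be told apart. Markers of leukocytes moved in the same direction: 4 of 4 measured T cell markers, 3 of 4 B cell markers, 3 of 4 macrophage and monocyte markers and 1 of 3 neutrophil markers (Ltf) were called higher in the lymphoid tissues. The summed T cell markers ran from 1573 to 7529.6 in the lymphoid tissues and from 909.9 to 1217 in the others, those of B cells from 5271 to 8981 and from 2360 to 5899, and those of macrophages from 961 to 5449.6 and from 173 to 1956. The B cell and macrophage sums overlapped between the groups. For B cells, lung (4686 to 5899) and brain (4542 to 5217) came near thymus (5271 to 6131). The lymphoid tissues differed in these markers, each set against the other 8 tissues. In bone marrow 0 of 4 T cell, 1 of 4 B cell, 2 of 4 macrophage and 3 of 3 neutrophil markers were called higher. In thymus 2 of 4 T cell markers and 0 of the other kinds were. A macrophage marker was called lower in bone marrow and a neutrophil marker in thymus. Of all 573 genes, 33 were called higher in bone marrow and 31 in thymus. The part of these cells in the St8sia4 result was not tested.

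The other 6 probe sets ran the other way or did not pass in this comparison, where 34.6% of the mouse probe sets were lower in the lymphoid tissues by adjusted p alone and 3.13% with the threshold on size. St8sia2 was lower by 0.30 ± 0.05 with probe set A and 0.30 ± 0.05 with B, St8sia3 by 0.31 ± 0.05, St8sia1 by 0.24 ± 0.04 with probe set A, and St8sia5 by 0.15 ± 0.05 (limma adjusted p from 5.66e-06 to 0.00761). All 5 were under the threshold on size and their groups overlapped. The lymphoid tissues were not the lowest throughout. St8sia5 averaged 466 in kidney and 497 in lung, against 499 to 529 in the 4 lymphoid tissues. St8sia2 probe set B averaged 202 in kidney, against 205 to 208 in the lymphoid tissues. St8sia3 averaged 811 in bone marrow, above liver (740), kidney (690) and lung (539). St8sia1 probe set B gave -0.08 ± 0.04 (limma adjusted p = 0.110). The median over all mouse probe sets was -0.04. With quantile normalization the values were -0.63 for St8sia3, -0.43 for St8sia2 probe set A and -0.35 for St8sia5.

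**Figure D2:**
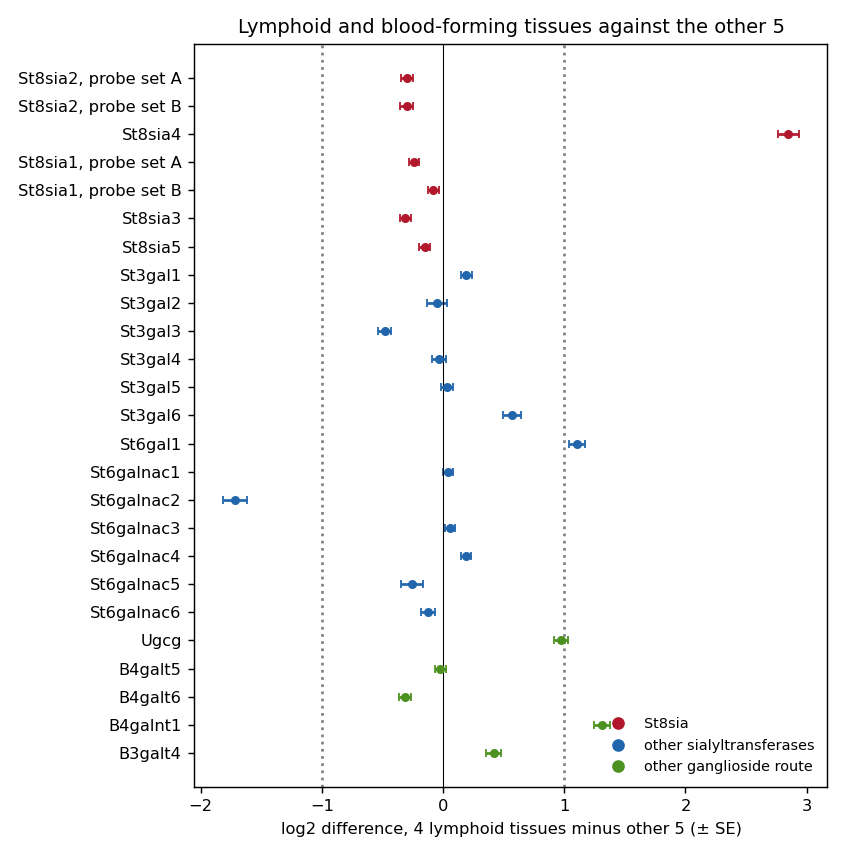
Log2 difference of the 4 blood-forming and lymphoid tissues minus the other 5, with its SE, for the mouse St8sia probe sets (red), the other measured sialyltransferases (blue) and the remaining measured genes of the ganglioside route (green); dotted lines mark 1 and -1. St8sia4 stands at 2.85, St6gal1 at 1.10, B4galnt1 at 1.31 and St6galnac2 at -1.71, and the other St8sia points lie between -0.31 and -0.08.

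St8sia2, the polysialyltransferase of the developing brain, varied little and peaked in testis. Probe set A read 584, 612 and 613 in testis, against 344 to 525 on the 24 arrays of the other tissues, with no overlap. Its testis value was higher by 0.48 ± 0.07 (limma adjusted p = 5.89e-06), where 18.5% of the mouse probe sets were higher in testis by adjusted p alone. Lung followed with 525, 520.2 and 442, and testis minus lung was 0.29 (limma adjusted p = 0.0174), or 0.21 without lung replicate 3 (limma adjusted p = 0.110). The remaining tissues averaged from 477 ± 49.0 in liver to 388 ± 45.0 in spleen, with brain at 460.5 ± 13.1, and no neighbours among them differed. With quantile normalization the testis value was 0.73, testis minus lung 0.57 and the range over tissues 0.97.

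Probe set B of St8sia2 also had testis and lung on top. It read 271, 346 and 378 in testis, against 180.3 to 315 elsewhere, and 302, 315 and 282 in lung. The testis arrays overlapped those of lung, with replicate 1 the lowest of them. Testis was higher than the other 8 tissues by 0.57 ± 0.08 (limma adjusted p = 2.85e-06) and lung by 0.42 ± 0.08 (limma adjusted p = 0.000199), where 25.8% of the mouse probe sets were higher in lung by adjusted p alone. Probe set A gave 0.16 ± 0.07 for lung (limma adjusted p = 0.0754). Brain came next with 262, 245 and 235, and lung minus brain was 0.28 (limma adjusted p = 0.0434), a difference that missed 0.05 in 6 of 35 alternatives (0.24 to 0.27). The other 6 tissues averaged 202 to 215. Over the 9 tissue means the 2 probe sets had a Pearson r of 0.88 and a Spearman rho of 0.75, as a description of points that share arrays.

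Against the mean of the other 8 tissues, neither polysialyltransferase was higher in brain: the difference was 0.05 ± 0.07 for St8sia2 probe set A (limma adjusted p = 0.647), 0.11 ± 0.08 for probe set B (limma adjusted p = 0.306) and -0.82 ± 0.14 for St8sia4. The brain label held against its markers. The 7 neuron and glia markers summed to 7057 to 8383 on the brain arrays and to at most 3485 on any other, and 4 of 7 (Ugt8a, Chga, Cx3cl1 and Ptn) were called higher there, against 26 of all 573 genes. Mag, counted by its brightest probe set, was not among them. Another Mag probe set averaged 1213 in brain, against 177 to 383 elsewhere.

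St8sia3 had its highest intensities in testis, with 1013, 1117 and 993, and then in brain, with 822, 944 and 921. Every testis array was above every array of the other tissues, and the 3 brain arrays overlapped those of bone marrow, which read 861, 867 and 704. Liver averaged 740.0 ± 48.9, kidney 690.2 ± 22.0, thymus 613 ± 61.4, spleen 568 ± 31.0, lung 539 ± 59.5 and lymph node 507 ± 28.6. The levels thus formed a gradient, and none of the 8 pairs of neighbours in the order differed in the values as deposited. Testis minus brain was 0.22 (limma adjusted p = 0.101), but 0.43 with quantile normalization (limma adjusted p = 0.00305) and 0.28 with array weights (limma adjusted p = 0.0279). Testis minus lymph node, at 1.04, was the 1 of 36 pairs called, and 24 passed by adjusted p alone.

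Against the other 8 tissues, St8sia3 was higher in testis by 0.66 ± 0.08 (limma adjusted p = 9.71e-08), in brain by 0.42 ± 0.08 (limma adjusted p = 6.32e-05) and in bone marrow by 0.25 ± 0.08 (limma adjusted p = 0.0100), all by adjusted p alone. It was lower in lymph node by 0.50, in lung by 0.41, in spleen by 0.32 and in thymus by 0.20 (limma adjusted p from 7.52e-06 to 0.0423). The thymus value passed 0.05 in 22 of 37 alternatives, and without thymus replicate 2 it was -0.12 (limma adjusted p = 0.356). Bone marrow, the 1 lymphoid or blood-forming tissue in which St8sia3 was high, gave 0.09 with quantile normalization, 0.20 without bone marrow replicate 1 and 0.20 without replicate 2, none below 0.05 in adjusted p. The same normalization raised testis to 1.21, brain to 0.73 and the range over tissues to 1.73. The call on the range was lost with median centring (0.98) and without lymph node replicate 3 (0.99) or testis replicate 2 (0.99).

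St8sia5, which adds the outer sialic acid of the complex gangliosides, was the family member that peaked in brain. It read 773, 863 and 732 on the brain arrays, against 426 to 647 on the other 24, with no overlap. Brain was higher than the other 8 tissues by 0.60 ± 0.08 (limma adjusted p = 3.21e-07), where 17.8% of the mouse probe sets were higher in brain by adjusted p alone. Testis came second with 573, 647 and 589, and brain minus testis was 0.39 (limma adjusted p = 0.00347). The other 7 tissues averaged from 552 ± 40.8 in liver to 466 ± 41.6 in kidney, and no neighbours among them or between testis and liver differed. With quantile normalization brain was 0.87 above the others and the range over tissues reached 1.05.

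St8sia1, the GD3 synthase that opens the series of gangliosides with more than 1 sialic acid on the inner galactose, peaked in liver and not in brain. Probe set A read 324, 395 and 326 in liver, against 216 to 331 on the other 24 arrays, and the groups overlapped through kidney, which read 274, 299 and 331. Liver was higher than the other 8 tissues by 0.46 ± 0.07 (limma adjusted p = 4.16e-06), where 18.5% of the mouse probe sets were higher in liver by adjusted p alone. Brain, with 239, 263 and 231, stood in the middle of the order at -0.11 ± 0.07 (limma adjusted p = 0.188). Probe set B read 231, 292 and 287 in liver and 232, 274 and 261 in brain.

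The liver value of probe set B was 0.17 ± 0.07 (limma adjusted p = 0.0476), and it passed 0.05 in 14 of 36 alternatives only. Lung was the lowest tissue for probe set B, with 191, 197 and 199 and no overlap with the others, at -0.34 ± 0.07 (limma adjusted p = 0.000230), and probe set A gave -0.15 ± 0.07 there (limma adjusted p = 0.0701). No neighbours in the order differed for either probe set. Over the 9 tissue means the probe sets had a Pearson r of 0.72 and a Spearman rho of 0.85.

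**Figure D3:**
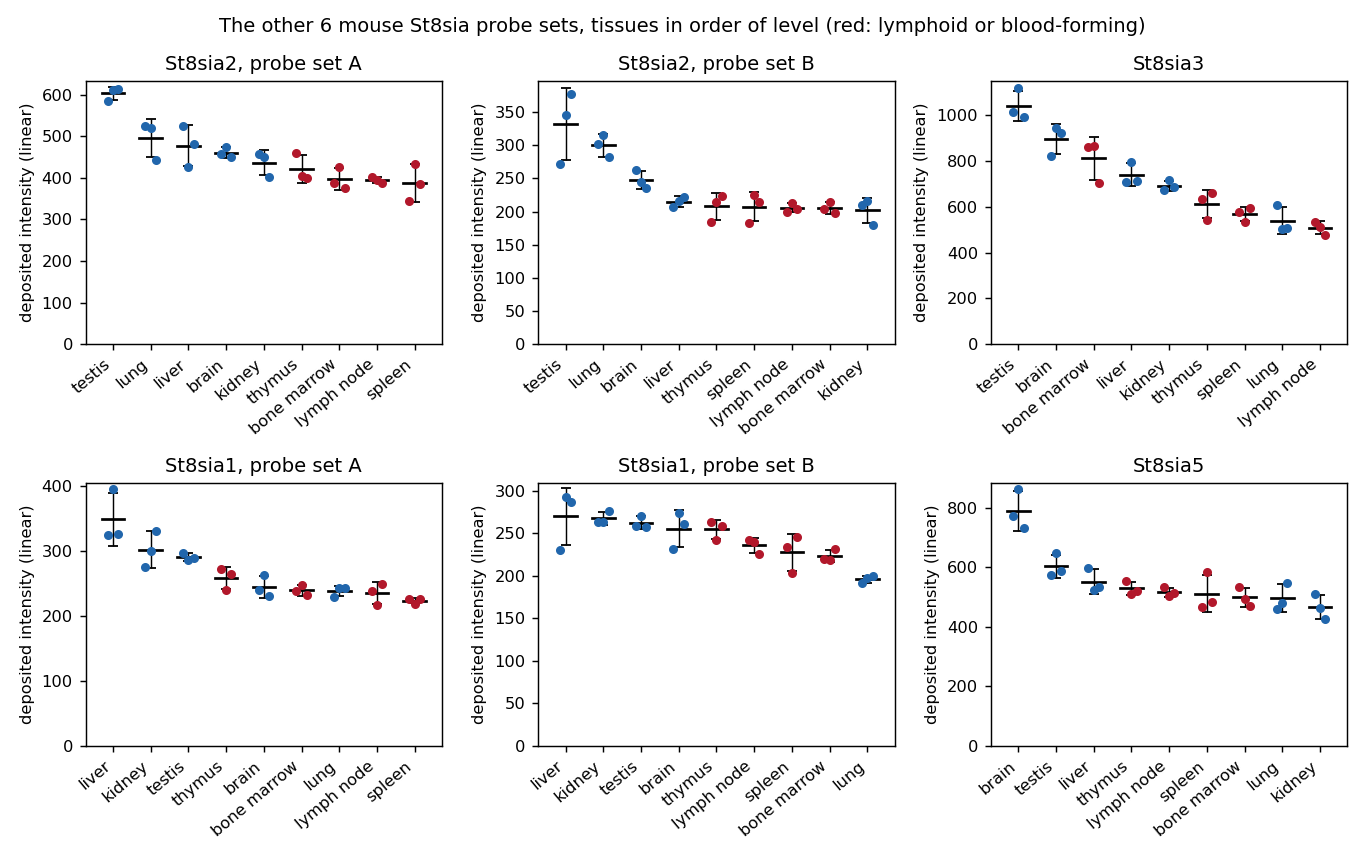
Deposited intensity of the other 6 mouse St8sia probe sets on each array, with tissues in order of their mean in each panel (bars: mean ± SD, n = 3; red: blood-forming or lymphoid tissues; all axes start at 0). Testis leads for St8sia2 and St8sia3, brain for St8sia5 and liver for St8sia1, and the tissue means of no panel span more than 2.05-fold.

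The 839 human probe sets on the same arrays, which serve as a rough background because a human probe can still bind its mouse counterpart, had a median intensity of 205.2, a 95th percentile of 590.1 and a median range over tissues of 1.40-fold. St8sia4 was above that 95th percentile on 14 of 27 arrays, St8sia3 on 19, St8sia5 on 5, St8sia2 probe set A on 2, and St8sia2 probe set B and both St8sia1 probe sets on 0. In kidney, liver and testis all St8sia4 arrays were below the human median. The folds of St8sia4 against those tissues therefore rest on values that cannot be told from background by this measure. The brain arrays of St8sia4 read 251, 166 and 284, all below the 95th percentile and replicate 2 below the median. The step from brain to kidney has the same limit. The human ST8SIA4 probe set read 103 to 236 and spanned 1.72-fold, with testis the highest and spleen the lowest tissue, unlike the mouse probe set. The other human ST8SIA probe sets spanned 1.28-fold to 1.61-fold. The mouse probe sets of St8sia1, St8sia2 and St8sia5 spanned 1.37-fold to 1.69-fold. The tissue orders of these mouse probe sets therefore rest on ranges that human probe sets also show. All lung arrays of St8sia1 probe set B (191 to 199) were also below the human median. St8sia2 probe set B was above that median on 20 of 27 arrays. Outside testis, lung and brain its tissue means ran from 202 (kidney) to 215 (liver), near that median. The testis and lung differences of this probe set were thus measured largely against values near background.

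The tissue means of St8sia4 correlated negatively with those of every other member. Over the 9 tissue means its Pearson r was -0.32 with St8sia5, -0.64 with St8sia3, -0.76 and -0.41 with St8sia2 probe sets A and B, and -0.85 and -0.70 with St8sia1 probe sets A and B. These are descriptions over 9 points that share arrays and scaling. The r values also carry the limits of background, since St8sia4 was below the human median in kidney, liver and testis. The ranges of St8sia1, St8sia2 and St8sia5 were ones that human probe sets also show.

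The genes most like each member were taken as the 5 called probe sets with the highest Pearson r over 9 tissue means. For St8sia4 these were Ifnar2, a chain of the type I interferon receptor (0.963), Itgb2, the leukocyte integrin beta chain (0.958), Sipa1, a Rap GTPase activator of lymphocytes (0.954 and 0.944 with 2 probe sets), and Flt3l, a growth factor of dendritic cells and blood progenitors (0.944). Their own ranges were 1.30, 5.24, 2.94, 2.65 and 2.35 on the log2 scale, so that Itgb2 varied more than St8sia4 and the others less. For St8sia5 they were Mag, the myelin-associated glycoprotein that binds sialic acid (0.974), Cnih2 (0.946), Fgf12 (0.929), Gdf1 (0.902) and Chga, chromogranin A of secretory granules (0.899), all of which were highest in brain.

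**Figure D4:**
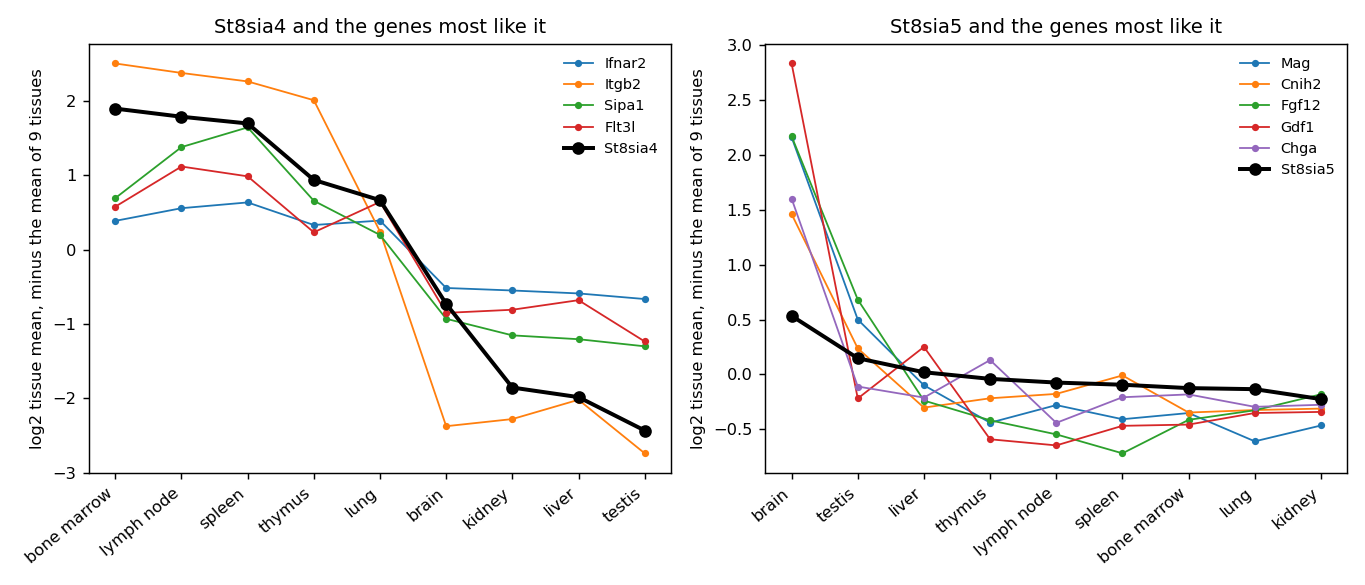
Log2 tissue means, each minus its own mean over the 9 tissues, for St8sia4 (left) and St8sia5 (right) in black with the genes whose tissue means correlate best with them. Lines of the left panel drop between lung and brain; lines of the right panel peak in brain, where St8sia5 moves less than the others.

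The likest genes of the other members were less alike. Fgf14 (0.833) and the chemokine gene Ccl27a (0.794) led for St8sia3, Arsa, the lysosomal arylsulfatase A (0.873), for St8sia2 probe set A, Phactr1 (0.863) for probe set B, Chst5 (0.836) for St8sia1 probe set A and B3galt2 (0.753) for probe set B. Arsa and Muc3 stood in the first 5 of both St8sia2 probe sets, and the 2 St8sia1 probe sets shared no gene. Some of these genes had uneven arrays: B3galt2 averaged 1137 ± 729 in liver and Phactr1 2445 ± 1555 in testis.

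Of 5 listed carriers of polysialic acid, 1 was measured. Ccr7, the chemokine receptor that guides cells to lymph nodes, averaged 1986 ± 187 in lymph node, 1277 ± 71.9 in spleen, 761 ± 93.6 in thymus and 365 ± 32.8 in bone marrow, against 175 to 265 in the other 5 tissues. It was higher in the lymphoid tissues by 2.03 (4.08-fold, limma adjusted p = 1.33e-18), with no overlap. Ccr7 and St8sia4 were both high in lymph node and spleen, and bone marrow, the top tissue for St8sia4, was the lowest of the 4 for Ccr7.

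Among the genes that supply sialic acid, 7 of 8 were measured and 0 were called higher or lower in the lymphoid tissues. The nearest was Cmas, which activates sialic acid to its CMP form, at 0.67. The kinase-epimerase Gne, the first step of the route, was lower in testis by 1.05 and averaged 138 ± 19.9 there, against 642 ± 22.6 in liver and 232 to 265 in the other 7 tissues. Liver is among the tissues that testis was set against, so that its level enters the 1.05. The testis mean of Gne was below the median of the human probe sets (205.2). Of 4 sialidases, which remove sialic acid, 3 were measured and 0 were called in the lymphoid comparison. Neu1, the lysosomal one, was lower in testis by 2.10 and averaged 101 ± 2.98 there, against 2305 ± 288 in kidney. Of 12 receptors of sialic acid, 8 were measured and 0 were called there. Over all 573 genes, 1 probe set each, 62 were called higher and 15 lower in the lymphoid tissues, with a median of -0.05.

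Of 14 other sialyltransferases 13 were measured, and in the lymphoid tissues 1 was called higher and 1 lower, with a median of 0.03. The higher one was St6gal1, which caps N-glycans of lymphocytes with alpha2,6-linked sialic acid, at 1.10 (2.15-fold, limma adjusted p = 5.80e-13). Its call was lost with quantile normalization. The lower one was St6galnac2, an enzyme of mucin-type glycans, at -1.71. It was higher in testis by 4.57, and testis is among the tissues that the lymphoid ones were set against, so that its level enters the -1.71.

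The ganglioside route had 11 of 11 listed genes measured. In brain, the tissue where St8sia5 peaked, 2 were called higher and 0 lower (median 0.07), against 26 higher and 59 lower of all 573 genes (median -0.07). They were St3gal2, which makes the substrates of St8sia5, at 1.36, and B4galt6, a lactosylceramide synthase, at 1.35. In the lymphoid tissues 1 was called higher and 0 lower (median 0.03): B4galnt1, the GM2/GD2 synthase that takes the products of St3gal5 and St8sia1 into the complex series, at 1.31 (2.48-fold, limma adjusted p = 8.01e-15). Ugcg, which makes the glucosylceramide on which the route is built, stood at 0.97, and it was called without thymus replicate 1. St3gal5, the GM3 synthase whose product St8sia1 uses, gave 0.03 in the lymphoid tissues and 0.33 in brain, neither called. The route lists share St3gal and St6galnac genes with the sialyltransferase list.

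The arrays had medians of 221 to 244, and each of the 27 correlated best with an array of its own tissue. Hepatocyte markers summed to 7305 to 10735 in liver and at most 1416 elsewhere, lung epithelium markers to 10672 to 19449.9 in lung and at most 933 elsewhere, and neutrophil markers to 16211 to 18104 in bone marrow and at most 1975 elsewhere. No germ cell marker was measured, so that the testis label was not checked that way. Testis replicate 1 stood apart in the ratio of 3′ to 5′ control probe sets, at 3.73 for Actb and 4.13 for Gapdh, against 1.03 to 1.81 and 1.11 to 2.10 on the other 26 arrays, a ratio that is higher where less of the 5′ end is labelled. Without it, testis against the other tissues was -2.77 for St8sia4, 0.68 for St8sia3, and 0.51 and 0.71 for St8sia2 probe sets A and B.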

How the data were processed

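Total RNA of 9 mouse tissues was measured on 27 one-colour arrays, 3 per tissue. The authors deposited, for each array, a linear intensity per probe set. How these were summarised and scaled is not given in the sources used here. Gene names came from the platform annotation and were checked by gene identifier against RefSeq (GRCm38.p6).

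Intensities below 16 were raised to 16 and log2 was taken. limma 3.58.1 in R 4.3.3 (lmFit, eBayes) was fitted to all 702 mouse probe sets, each on its own, with 1 coefficient per tissue. Tissues were compared by the F test, each against the mean of the other 8 on the log2 scale, bone marrow, lymph node, spleen and thymus together against the other 5, and in 36 pairs, all two-sided, with Benjamini-Hochberg adjustment over probe sets. Lists used the brightest probe set of a gene.

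All mouse St8sia probe sets are reported, with the 5 genes of highest Pearson r and the measured members of the gene lists that were called or next to the St8sia enzymes. The members and lists were chosen with earlier results of these data known. Scaling, floor, offset, filter, probe set, variance, weight, block and reference settings were varied, and each array was left out in turn. The fit was tested on simulated data. The title numbers did not pair the arrays. The 3 arrays of a group are too few to test for a stray value.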

Additional observations from a re-analysis of the deposited data

How the results depend on the processing

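Of 58 results under up to 37 settings, 2106 values were recomputed: 2013 kept direction and side of the threshold, 93 changed side and 0 reversed. For ranges and for differences called as deposited, the threshold was the call rule. For other differences it was adjusted p alone. Passing 1 in size was no change for those, as for St8sia3 in testis (1.21 with quantile normalization). Counts were kept within a set factor, so that 258 against 367 called probe sets was no change. The number of mouse probe sets called over the 9 tissues was 367, and 258 to 379 under the alternatives. The St8sia3 range was 0.98 with median centring and 0.99 to 1.07 when 1 array was left out, against a threshold of 1. The St8sia5 range passed it with quantile normalization (1.05). St8sia1 probe set B in the lymphoid comparison was -0.10 to -0.060 when 1 array was left out, and its adjusted p by limma was 0.0277 without liver replicate 1. The causes were not tested. St8sia4 in the lymphoid comparison ran from 2.63 to 2.89 and its range from 4.05 to 4.49. With the replicate block, 367 probe sets were called, all 367 shared with the fit without it. Same-numbered arrays of different tissues had a median correlation of deviations of 0.02, against 0.01 for different numbers, and 9 of 27 arrays correlated best with their own number. The block moved the St8sia1 probe set B value for liver to an adjusted p of 0.0502 and the St8sia3 value for thymus to 0.0511, both by limma. The brighter probe set per gene leaves St8sia1 probe set B and St8sia2 probe set B without a value in that setting.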
